A study of Mus musculus with 8 samples.

Results

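The colon and the forestomach lie at the far ends of the stretch of gut that was profiled, and poly(A) RNA from their epithelium was compared in mouse embryos at E16.5, late in gestation. The comparison takes 4 of the 8 libraries of the study, 2 from the colon and 2 from the forestomach. The other 4, from the hindstomach and the proximal small intestine (intestine below), entered the estimate of the spread. Of 23393 gene symbols, 12463 reached at least 1 FPKM (a fragment count scaled for the length of the transcript and the size of the library) in at least 2 of the 4 colon and forestomach libraries and were tested on log2(FPKM + 1). No treatment was given to any group. Per the labels' protocol, the forestomach was cut away where squamous epithelium meets glandular. It was soaked in Dispase, a protease that loosens the basement membrane, and its epithelium was peeled off by hand. Colon epithelium was shaken loose in 5 mM EDTA, a chelator that weakens cell contacts. Tissue and method of isolation cannot be told apart. The protocol names ShhCre;R26YFP/+ embryos as the source of gut epithelium at this stage. In them Cre from the Shh locus switches on a yellow fluorescent reporter in Shh-expressing cells, gut epithelium among them, and in their descendants. For the peeled forestomach layer the protocol gives freezing for RNA and digestion for sorting as alternatives. For the colon it has the loosened cells frozen at once. Whether both libraries of a tissue stem from different embryos is not stated, so a p-value reflects the spread of these libraries alone, and that spread may be technical.

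The rodent forestomach is lined by a stratified squamous epithelium like that of the oesophagus and the skin. Its basal cells are held to the basement membrane by hemidesmosomes and express the keratins Krt5 and Krt14, and cells that leave the basal layer switch to suprabasal keratins and then lay down a cornified envelope of cross-linked proteins. The colon is lined by a single layer of absorptive, goblet and enteroendocrine cells under control of the Cdx homeobox factors, and before birth it carries villi and many proteins of the small intestine. In each sentence below, values are FPKM, which is per transcript length, given for replicates 1 and 2 of a tissue in that order. A difference is colon minus forestomach in log2(FPKM + 1), ± its standard error, with 2 libraries per tissue. That error rests on a spread pooled over the 4 tissues. The forestomach libraries lay further apart, with a Pearson correlation of 0.7116 against 0.9586 (colon), 0.9803 (hindstomach) and 0.9845 (intestine). Errors and adjusted p-values may therefore be too small where the forestomach libraries differ. Calls are from a limma fit of the 4 tissue means and need a change of 2-fold or more with a p under 0.05 after Benjamini-Hochberg adjustment. Adjusted p-values are from that fit unless another is named. A gene that passes the filter through 1 tissue alone has to be higher there, so counts of called members of gene lists are descriptions. They are to be read beside the shares over all genes tested, 9.57% called higher in the colon and 2.53% lower.

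The 2 forestomach libraries were unlike each other, and this bears on each result. Both carried squamous markers, but the library labelled forestomach replicate 1 held gastric gland genes at a summed level of 188369 FPKM, above the 28241 and 39848 FPKM of the hindstomach libraries. Whether its stage and dissection match its label was not tested. The Pearson correlation of log2(FPKM + 1) over the 12463 genes was 0.712 between the forestomach libraries and 0.959 between the colon libraries. Some libraries lay nearer to another tissue. Colon replicate 1 was at 0.972 with intestine replicate 1. Forestomach replicate 1 was at 0.778 and 0.800 with hindstomach replicates 1 and 2, and forestomach replicate 2 at 0.724 and 0.708. In the library labelled forestomach replicate 1 the 10 genes of highest FPKM made up 52.5% of the sum over genes, against 17.4% in forestomach replicate 2 and 9.29% and 6.27% in the colon. Pgc, a pepsinogen of gastric glands, stood at 97970 FPKM in forestomach replicate 1 and at 2.55 in replicate 2. Of the defining squamous markers, Krt5, Krt14, Trp63, Col17a1, Krt13, Krt4, Lor and Krtdap were present in both forestomach libraries, from 2.85 FPKM (Trp63) to 528 FPKM (Krtdap) in replicate 1 and from 53.0 FPKM (Trp63) to 15454 FPKM (Krt13) in replicate 2, and the highest colon value among them was 1.75 FPKM (Krt14). The colon libraries carried Cdx1, Cdx2, Vil1, Cdh17, Epcam, Hoxd13 and Hoxb13 at 9.95 FPKM or more. Car1, an adult colonocyte enzyme, was low there, at 3.3 and 2.53 FPKM. Lct, Apoa4 and Fabp2, which mark the small intestine in the adult, were also high in the colon, and several posterior Hox genes were higher there than in the intestine libraries (values below). The relative depth was read from the steps between low values, with an uncertainty of a factor of 2. With colon replicate 1 set to 1, colon replicate 2 had 1.79, forestomach replicate 1 had 1.97 and forestomach replicate 2 had 0.973.

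With all libraries, 1193 genes (9.57% of those tested) were called higher in the colon and 315 (2.53%) lower, 12.1% together. Each of these counts depended strongly on single libraries. Without forestomach replicate 1 the counts were 2379 higher (19.1%) and 949 lower (7.61%), and without forestomach replicate 2 they were 2747 higher (22%) and 856 lower (6.87%), where the lone library is assumed to vary like the other tissues. Without colon replicate 1 they were 477 and 82, and without colon replicate 2 they were 622 and 122. Without 1 hindstomach or intestine library they were 584 to 627 and 149 to 152. Calls that were kept in all 8 fits that leave out 1 library are named here as stable, and numbered 373 higher and 81 lower. The fits without a forestomach library also drop the spread between the forestomach libraries, and they seldom ended a call. A stable call therefore does not show that the result is free of the difference between those libraries. A fit of the colon and forestomach libraries alone called 120 higher and 31 lower. At an unadjusted p under 0.05, 3437 genes were higher and 672 lower. Both colon libraries were at least 2-fold above both forestomach libraries for 925 genes (7.42%) and at least 2-fold below both for 350 (2.81%).

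The median difference over all genes tested was 0.42, and it was 0.51 against forestomach replicate 1 alone and 0.31 against forestomach replicate 2 alone. Scaling the libraries by the median of ratios moved it to 0.0143. This changed the share of calls that were higher in the colon from 79.1% to 56.8% (581 higher, 441 lower). Quantile normalization moved that share to 57.6%, and rescaling to equal totals to 91.2%. The balance of higher against lower calls thus depends on the scaling, and each gene's difference is to be read against the median.

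**Figure D1:**
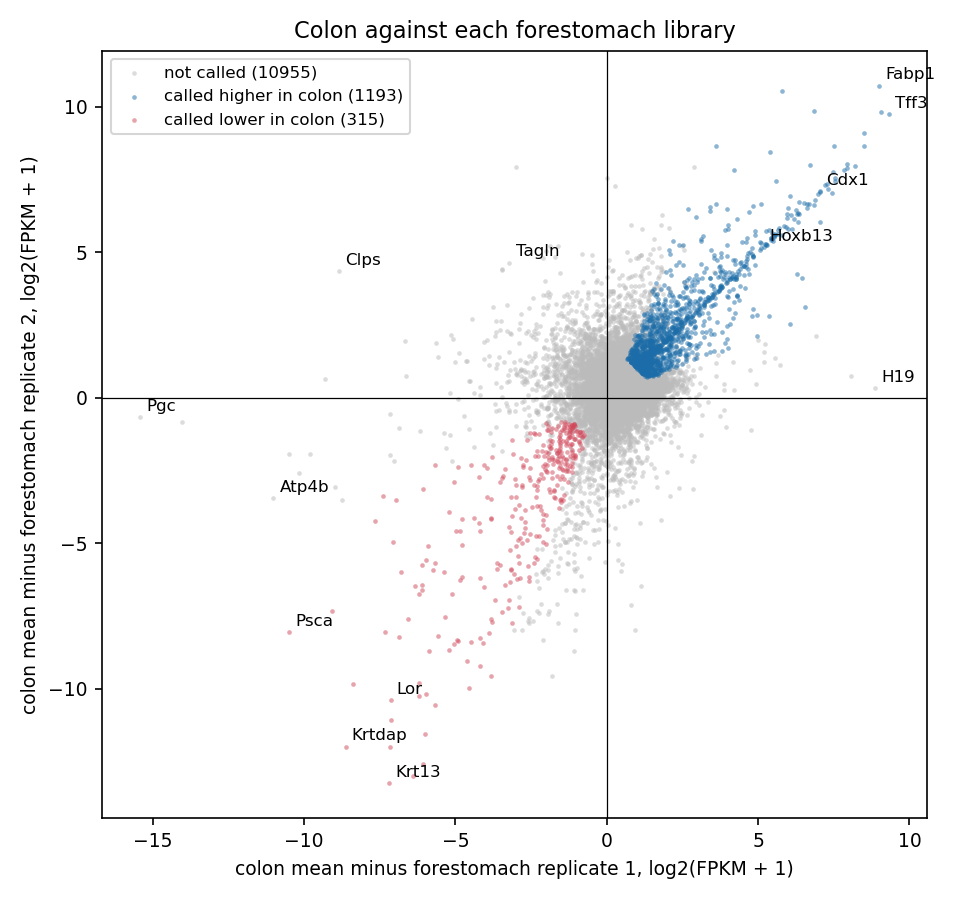
Each point is 1 of the 12463 genes tested; the x axis is the colon mean minus forestomach replicate 1 and the y axis the colon mean minus forestomach replicate 2, both in log2(FPKM + 1), coloured by the call with all libraries (1193 higher, 315 lower, 10955 not called). Called genes fall at the upper right and lower left, some of them well off the diagonal (Krt13), and Pgc, Clps, Atp4b and H19, which were not called, lie far from it.

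The genes with the largest differences are given first. Fabp1, a fatty acid carrier of enterocytes, stood at 4773 and 1502 FPKM in the colon and at 4.26 and 0.584 FPKM in the forestomach. Both colon libraries were far above both forestomach libraries, and the difference was 9.86 ± 0.73 (adjusted p = 0.00105). Tff3, the trefoil peptide that goblet cells secrete with mucus, was at 1382 and 1667 FPKM in the colon and 1.36 and 0.764 FPKM in the forestomach, a difference of 9.54 ± 0.30 (adjusted p = 0.000102). Spink1, a trypsin inhibitor, was at 1181 and 1024 against 1.04 and 0.212 FPKM (difference 9.45 ± 0.35, adjusted p = 0.000102). The rule that named these genes required that the groups did not overlap. All of their calls were stable. The other genes that the rule named among the 12 most raised were Ctrb1 (chymotrypsinogen, a pancreatic enzyme on the pancreas and liver list), Mptx1 (a pentraxin of the gut), Fabp2, Apoa4, Mamdc4 (endotubin, of the fetal endosome), Muc13 (a membrane mucin), Cps1, Retnlb and Prap1, with differences between 7.84 (Prap1) and 8.78 (Ctrb1). Mptx1 was at 481 and 331 FPKM in the colon and at 0.0993 and 0 FPKM in the forestomach. Apoa4 was the exception among the 12 in stability: its call (adjusted p = 0.0205) ended without either colon, either hindstomach or either intestine library, where the adjusted p reached 0.121.

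On the forestomach side Krtdap, a secreted protein of differentiating keratinocytes, stood at 0.539 and 0.157 FPKM in the colon and at 528 and 5429 FPKM in the forestomach, a difference of -10.31 ± 1.09 (adjusted p = 0.00342). Both forestomach libraries were far above both colon libraries, and replicate 2 was the higher of them. Fam25c was at 0.0855 and 0.0713 FPKM in the colon and 364 and 978 FPKM in the forestomach (difference -9.11 ± 0.45, adjusted p = 0.000234). Lor encodes loricrin, a main protein of the cornified envelope, and was at 1.2 and 1.35 against 320.1 and 3029 FPKM (difference -8.76 ± 0.95, adjusted p = 0.00367). Psca, a surface protein of stomach and squamous epithelium that is on the gastric gland list, and Lgals7, a galectin of stratified epithelium, were higher in forestomach replicate 1 than in replicate 2: Psca was at 6704 and 1232 FPKM there and 2.29 and 5.49 FPKM in the colon. The calls of Krtdap, Fam25c, Lor, Psca and Lgals7 were stable. The other named genes, Krt13, Krt4, Cnfn, Sprr3, Krt5, Asprv1 and Crct1, had differences between -10.22 (Krt13) and -8.22 (Crct1) but lost their calls when some single libraries were left out. The calls of Krt13, Krt4, Sprr3 and Asprv1 ended without either colon, either hindstomach or either intestine library, with adjusted p up to 0.143, 0.183, 0.179 and 0.108. Those of Cnfn, Krt5 and Crct1 ended without either colon library, with adjusted p up to 0.0761, 0.0889 and 0.0659. For Krt13, the smaller of the 2 forestomach values was 233 FPKM and the larger 15454 FPKM, against 1.38 and 0.0746 FPKM in the colon. The rule that named these genes allowed no overlap.

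**Figure D2:**
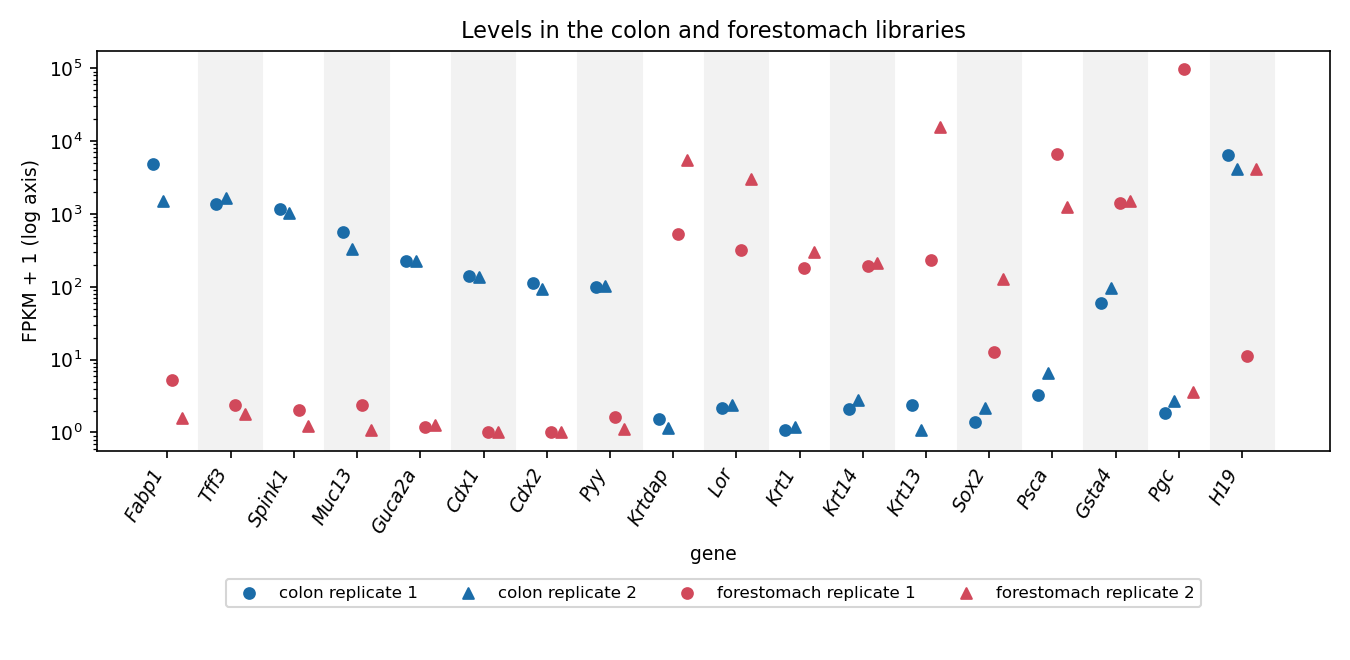
The y axis is FPKM + 1 (log axis) and the x axis shows 18 genes, blue for the colon and red for the forestomach, with circles for replicate 1 and triangles for replicate 2. For the intestinal genes on the left both colon libraries lie above both forestomach libraries, for the squamous genes in the middle both lie below, and for Pgc and H19 on the right the forestomach libraries lie apart from each other.

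The sequence before the start site is shown for 3 stable genes in each direction. These genes lie near opposite ends of the scale of differences. Each has 1 start in RefSeq and at least 10 FPKM in the higher tissue. The set is a selection and not a strict top 3. Tff3 and Spink1 (difference 9.54 and 9.45) are stable and above Ctrb1 and Mptx1 (8.78 and 8.58) but are not shown. Psca (-9.28), stable and further from 0 than Fam25c (-9.11) and Lor (-8.76), is not shown either. Each sequence is 250 bases upstream of the start on the gene's own strand, from RefSeq on GRCm38.p6. Capitals mark matches on either strand to 4 motifs that were chosen with the results known. The first, CATAAA, is of the kind that Cdx factors bind. The second, TGANTCA, is of the kind that AP-1 factors bind. The third, CAAAGTCCA, is of the kind that Hnf4 factors bind. The last, TATAAA, is the box at which the basal transcription machinery is placed. The Cdx-type motif and the basal box share all but their first letter. The windows are chr6:71199629-71199878 (Fabp1, plus strand), chr8:111691011-111691260 (Ctrb1, minus), chr1:174330268-174330517 (Mptx1, plus), chr7:30787655-30787904 (Krtdap, plus), chr14:34355394-34355643 (Fam25c, minus) and chr3:92083143-92083392 (Lor, minus).
Fabp1: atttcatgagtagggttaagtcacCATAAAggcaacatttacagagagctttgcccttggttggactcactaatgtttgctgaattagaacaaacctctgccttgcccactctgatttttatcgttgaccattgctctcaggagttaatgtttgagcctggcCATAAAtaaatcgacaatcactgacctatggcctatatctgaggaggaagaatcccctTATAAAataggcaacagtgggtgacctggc
Ctrb1: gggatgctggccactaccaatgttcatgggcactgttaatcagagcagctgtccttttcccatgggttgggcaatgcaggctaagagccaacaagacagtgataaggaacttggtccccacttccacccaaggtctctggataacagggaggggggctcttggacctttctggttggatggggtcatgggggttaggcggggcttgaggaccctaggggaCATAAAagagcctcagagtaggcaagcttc
Mptx1: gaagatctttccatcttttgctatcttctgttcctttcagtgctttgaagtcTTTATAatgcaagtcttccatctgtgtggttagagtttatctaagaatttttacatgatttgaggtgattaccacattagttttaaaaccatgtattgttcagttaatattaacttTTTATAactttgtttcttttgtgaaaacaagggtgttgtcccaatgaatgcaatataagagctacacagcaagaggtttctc
Krtdap: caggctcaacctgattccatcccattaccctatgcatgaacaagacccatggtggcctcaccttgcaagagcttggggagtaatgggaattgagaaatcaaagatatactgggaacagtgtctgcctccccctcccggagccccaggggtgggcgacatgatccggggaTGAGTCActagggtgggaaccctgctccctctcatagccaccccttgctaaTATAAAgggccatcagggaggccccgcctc
Fam25c: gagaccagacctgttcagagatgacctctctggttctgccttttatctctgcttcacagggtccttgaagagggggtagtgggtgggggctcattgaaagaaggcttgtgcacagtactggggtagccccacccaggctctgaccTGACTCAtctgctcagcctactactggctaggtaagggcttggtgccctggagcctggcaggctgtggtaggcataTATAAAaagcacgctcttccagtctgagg
Lor: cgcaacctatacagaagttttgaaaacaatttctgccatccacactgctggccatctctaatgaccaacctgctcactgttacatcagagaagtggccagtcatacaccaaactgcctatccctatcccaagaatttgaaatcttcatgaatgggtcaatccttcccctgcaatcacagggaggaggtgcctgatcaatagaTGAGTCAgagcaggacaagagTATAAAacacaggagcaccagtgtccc

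The 3 forestomach promoters each held 1 AP-1-type match and 1 match to the basal box, and none held a Cdx-type or Hnf4-type match. Of the genes higher in the colon, Fabp1 held 2 Cdx-type matches and 1 basal box, and Mptx1 held 2 basal boxes. Ctrb1, a pancreatic enzyme gene, held 1 Cdx-type match. It lay close to the start, as did the basal box of Fabp1 and of the forestomach promoters. Over the 7703 tested genes with 1 start, the AP-1-type motif was in 4.22% of windows, the basal box in 6.7%, the Cdx-type motif in 6.04% and the Hnf4-type motif in 0.467%. Among the 734 genes called higher in the colon these shares were 6.54%, 10.2%, 8.72% and 1.77%. Among the 196 called lower they were 12.2%, 18.4%, 10.7% and 1.02%. These are matches of letters in a window and were not tested.

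The squamous programme was described by 4 lists, from the basal layer to the surface. Of 17 tested members of the basal and hemidesmosome list, 2 were called lower in the colon and 1 higher, with a median of -1.05; without forestomach replicate 1 the counts were 11 and 1, and without replicate 2 they were 6 and 1. Krt14, the basal type I keratin, was at 1.07 and 1.75 FPKM in the colon and 193 and 212 FPKM in the forestomach, a difference of -6.41 ± 0.31 (adjusted p = 0.000226) that was stable and nearly equal in the 2 forestomach libraries. Krt5, its partner, was at 0.303 and 0.0886 FPKM in the colon and 167 and 2574 FPKM in the forestomach. Itga3, a laminin receptor chain, was the member higher in the colon, at 57 and 47.8 FPKM against 17.7 and 12.8 (difference 1.73 ± 0.23, adjusted p = 0.00748), and its call ended without colon replicate 1 (adjusted p = 0.059).

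Of 20 tested suprabasal keratins and desmosome genes, 9 were called lower in the colon and 0 higher, with a median of -3.38 against 0.42 for all genes. Without forestomach replicate 1 the number lower was 19, and without replicate 2 it was 13. Krt1 and Krt10, the keratin pair of the spinous layer in skin, differed by -7.69 ± 0.30 (adjusted p = 0.000124) and -7.30 ± 0.83 (adjusted p = 0.00437) and were stable. Krt1 was at 0.0856 and 0.171 FPKM in the colon and 179 and 299 FPKM in the forestomach, and Krt10 at 2.7 and 2.65 and 216 and 1548 FPKM. Krt13 and Krt4, the pair of the oesophagus and forestomach, reached more FPKM than either in forestomach replicate 2 and were described above. Both forestomach libraries were above both colon libraries for all of these genes.

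In the cornified envelope list, 34 of 46 genes passed the filter, 27 were called lower in the colon and 0 higher, with a median of -6.02. All 34 were lower without forestomach replicate 1, and 30 were lower and 1 higher without replicate 2; 7 of the 27 calls were stable. A member that passes the filter through the forestomach alone has to differ, so this count is a description. The exception, Tgm3, a transglutaminase that cross-links envelope proteins, stood at 20.3 and 13.9 FPKM in the colon, 2.42 in forestomach replicate 1 and 154 in forestomach replicate 2, and was called higher against the former and lower against the latter. Of the 44 list members with 1 placement, 30 lie on chromosome 3 between 92080271 and 93471980 (GRCm38), the epidermal differentiation complex. Of 35 tested genes in that span, 32 were called lower in the colon and 1 higher, and 13 of the 14 that were not on the list were among those lower. The list members set the span, and the same filter applies to genes off the list, so these counts too are descriptions. The 1 higher was Smcp, a sperm mitochondrial protein gene named here after its values were seen, at 22.4 and 6.58 FPKM in the colon and listed at 0 in both forestomach libraries (adjusted p = 0.0149, and 0.0641 without colon replicate 1). The Lce and Sprr genes there are near copies of each other, so their reads may be shared and single members are uncertain.

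Of 27 tested members of the list of barrier lipids and proteases, 9 were called lower and 0 higher (25 and 0 without forestomach replicate 1, 18 and 1 without replicate 2), with a median of -2.94. Spink5, the protease inhibitor whose loss breaks the skin barrier, was at 0.802 and 0.782 FPKM in the colon and 198 and 114 FPKM in the forestomach (difference -6.40 ± 0.33, adjusted p = 0.00026). Klk7, a protease that it inhibits, was at 0.0184 and 0.041 and 28.9 and 23.3 FPKM (difference -4.71 ± 0.21, adjusted p = 0.000176). Both were of similar height in the 2 forestomach libraries and both calls were stable. Slpi, an elastase inhibitor of mucosal surfaces, was at 4.97 and 5.87 FPKM in the colon and 89.5 and 1242 FPKM in the forestomach, and its call (adjusted p = 0.0235) ended when any 1 of the 6 libraries outside the forestomach was left out, with adjusted p up to 0.125.

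Of 29 tested squamous factors, 9 were called lower in the colon and 3 higher (median -1.89; 20 and 3 without forestomach replicate 1, 16 and 5 without replicate 2). The stable calls were the Iroquois factors Irx3 and Irx5 and the corepressor Hr. Irx3 was at 0.0534 and 0.13 FPKM in the colon and 6.81 and 18.3 FPKM in the forestomach (difference -3.49 ± 0.42, adjusted p = 0.00548). Irx5 was at 0.0363 and 0.00404 and 6.6 and 12.1 FPKM (difference -3.29 ± 0.30, adjusted p = 0.0021). Hr was at 0.973 and 1.05 and 8.79 and 13.7 FPKM. Sox2, which specifies foregut and stomach, was at 0.39 and 1.14 FPKM in the colon and 11.6 and 125 FPKM in the forestomach (difference -4.53 ± 0.99, adjusted p = 0.0338). Grhl1, Irx2, Pitx1, Barx2 and Klf4 were also called lower, with differences between -4.20 (Grhl1) and -1.89 (Klf4). The calls of Sox2, Grhl1, Irx2, Pitx1, Barx2 and Klf4 were not stable. In that order the highest adjusted p when 1 library was left out was 0.162, 0.163, 0.0782, 0.0874, 0.162 and 0.0889, in each case with colon replicate 1 among the libraries whose absence ended the call. Trp63, the master factor of stratified epithelium, was at 0.0146 and 0.00925 FPKM in the colon and 2.85 and 53 FPKM in the forestomach. It was not called in the full fit (adjusted p = 0.072), and was called lower against either forestomach library alone. Among the 3 factors that went against the list were Maf and Tbx3, higher in the colon by 3.20 ± 0.44 and 2.54 ± 0.43 (adjusted p = 0.00843 and 0.0163). Neither was stable, and the highest adjusted p without 1 library was 0.0682 and 0.0893.

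Of 36 tested intestinal transcription factors, 12 were called higher in the colon and 0 lower, with a median of 0.90 (20 and 0 without forestomach replicate 1, 18 and 1 without replicate 2), and 9 of the 12 were stable. Cdx1 and Cdx2, the homeobox factors that specify intestine, were at 138 and 134 FPKM (Cdx1) and at 112 and 91.1 FPKM (Cdx2) in the colon. In the forestomach Cdx1 was at 0.0302 and 0 FPKM and Cdx2 at 0.0273 and 0 FPKM, so both libraries were near the bottom of the scale, and the differences were 7.08 ± 0.22 and 6.65 ± 0.23 (adjusted p = 0.000102 and 0.000102). Isx, a regulator of vitamin A uptake, Creb3l3, a regulator of lipid transport genes, the bile acid receptor Nr1h4, and the nuclear receptors Hnf4g and Nr5a2 were higher by 5.44 ± 0.34, 5.50 ± 0.45, 4.84 ± 0.59, 4.92 ± 0.48 and 3.40 ± 0.31, all stable. Hnf4a stood at 149 and 104 FPKM in the colon and 26.4 and 1.98 FPKM in the forestomach, with replicate 1 the higher; its call (adjusted p = 0.0472) and that of Nr1i3 were not stable, with adjusted p up to 0.194 and 0.0977 when 1 library was left out.

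Foxd2, a forkhead factor, differed not only from the forestomach. It was at 8.26 and 13.5 FPKM in the colon, 0.0238 and 0.00692 FPKM in the forestomach and 0.0382 and 0.00644 FPKM in the intestine. Against the forestomach the difference was 3.51 ± 0.27 (adjusted p = 0.00112), and against the intestine 3.50 (adjusted p = 0.013). In the latter comparison 47 of 12463 genes (0.377%) were called higher in the colon. The mesenchyme and smooth muscle list was also higher in the colon, with a sum of 1049 and 2386 FPKM against 543 and 111 FPKM in the intestine. The part of mesenchymal cells in the values of Foxd2 was not tested.

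Hox genes record position along the body, with low paralog groups toward the head and high groups toward the tail. Of the 16 Hox genes of groups 9 to 13 on the list, 9 passed the filter; all of these were called higher in the colon, with and without each forestomach library, and 7 calls were stable. Those of Hoxd10 and Hoxd12 were not (adjusted p up to 0.0667 and 0.0664). The 9 passed the filter through the colon alone and had to differ, so the values matter more than the count. Hoxb13 was at 30.2 and 41.1 FPKM in the colon and listed at 0 and 0.00813 in the forestomach (adjusted p = 0.000176). Hoxd13 was at 9.95 and 14.2 FPKM in the colon and at 0 in both forestomach libraries (adjusted p = 0.000593). Hoxa10 was at 5.12 and 9.69 FPKM in the colon and 0 and 0.00548 in the forestomach. Hoxb9 was at 6.61 and 10.7 and 0.199 and 0. Hoxa9, Hoxa11, Hoxa13, Hoxd10 and Hoxd12 reached from 1.13 FPKM (Hoxd12) to 5.5 FPKM (Hoxa11) in the colon, and no more than 0.019 FPKM in the forestomach. The 7 others did not reach 1 FPKM in 2 libraries.

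Against the intestine, 6 of the 9 were also called higher in the colon: Hoxb13 by 5.15 (adjusted p = 0.00374), Hoxd13 by 3.67 (0.0093), Hoxb9 by 3.16 (0.0213), Hoxa10 by 3.00 (0.0285), Hoxa13 by 2.20 (0.0252) and Hoxa9 by 2.10 (0.0492), the numbers in parentheses being adjusted p. Hoxa11, Hoxd10 and Hoxd12 missed it, with adjusted p of 0.0726, 0.166 and 0.129. As for Foxd2, the part of mesenchymal cells in these differences was not tested.

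Hoxc8 was called lower in the colon. It was at 0.228 and 2.27 FPKM in the colon and 12.1 and 37.8 FPKM in the forestomach, a difference of -3.49 ± 0.64 (adjusted p = 0.0207). The call ended without colon replicate 1, either hindstomach or either intestine library (adjusted p up to 0.102). Hoxc4 was at 0.679 and 1.14 and 3.13 and 21.7 FPKM and Hoxc5 at 0.378 and 0.672 and 2.76 and 46.7 FPKM. Both forestomach libraries were above both colon libraries, but with all libraries neither was called (adjusted p = 0.0884 and 0.103). Hoxc6 overlapped between the groups (0.551 and 1.78 against 1.72 and 24.1 FPKM). Hoxc5 overlaps Hoxc6 and Hoxc8, and Hoxd3 overlaps Hoxd4, each on the same strand. Reads may be shared between such neighbours, so their values and calls may not be separate. Of the 12 tested genes of groups 1 to 5, 3 were called higher, Hoxb5, Hoxd3 and Hoxd4 (difference 2.31 ± 0.54, 1.68 ± 0.42 and 1.70 ± 0.37), and none was stable (adjusted p up to 0.168, 0.109 and 0.104).

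**Figure D3:**
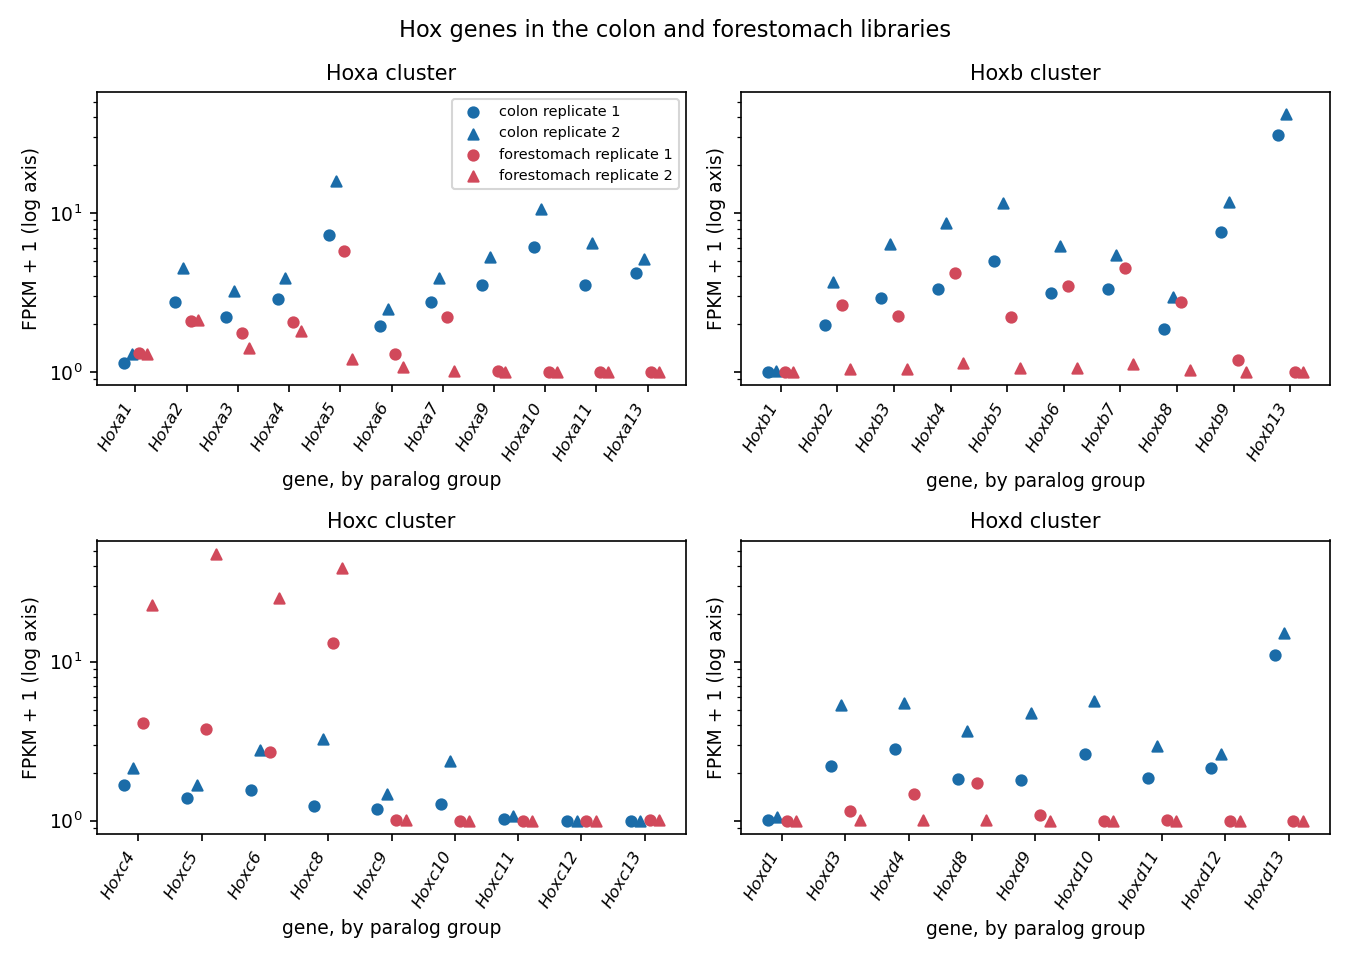
FPKM + 1 on a log axis for the Hox genes on the lists, in 1 panel per cluster ordered by paralog group, blue for the colon and red for the forestomach, circles for replicate 1 and triangles for replicate 2. The a, b and d clusters are highest in the colon from group 9 on, where the forestomach is at or near 0, and the Hoxc4 to Hoxc8 genes are highest in forestomach replicate 2.

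Of 25 tested simple epithelium genes, 8 were called higher in the colon and 1 lower, with a median of 1.40 (14 and 4 without forestomach replicate 1, 13 and 2 without replicate 2). Cdh17, a cadherin of intestine, was at 194 and 142 FPKM in the colon and 0.065 and 0.156 FPKM in the forestomach (difference 7.24 ± 0.27, adjusted p = 0.000102). Cldn2, a pore-forming claudin, was at 91 and 31.5 and 0.0928 and 0 FPKM (difference 5.71 ± 0.48), and both calls were stable. Krt8, a general keratin of simple epithelia, was at 1076 and 1130.0 FPKM in the colon and 1245 and 468 in the forestomach, and its groups overlapped (adjusted p = 0.458). Krt23 was lower in the colon, at 8.06 and 5.8 against 88.8 and 423 FPKM (difference -4.64 ± 0.68, adjusted p = 0.0102); its call ended without either colon library (adjusted p up to 0.0659).

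Genes of absorption and digestion were mostly higher in the colon. Members that pass the filter through the colon alone, such as Alpi, Lct and Mep1a, have to be higher there. These counts and those of the lists that follow are therefore descriptions. Of 34 brush border and digestion genes, 20 were called higher and 0 lower, with a median of 4.54, and 17 calls were stable (26 higher without forestomach replicate 1, 27 without replicate 2, 0 lower in either). Alpi, the brush border alkaline phosphatase, was at 317 and 94.1 FPKM in the colon and 0.121 and 0.0614 FPKM in the forestomach, a difference of 7.32 ± 0.54 (adjusted p = 0.00105). Lct, lactase, was at 300.5 and 93.6 and 0.142 and 0.0644 FPKM (difference 7.26 ± 0.57, adjusted p = 0.00122). Mep1a, a metalloprotease, was at 109 and 93.1 FPKM in the colon and listed at 0 in both forestomach libraries. Cdhr5, a protocadherin of the brush border, differed by 6.52 ± 0.70 (adjusted p = 0.00356). Colon replicate 1 was higher than replicate 2 for Alpi, Lct and Cdhr5, and both were above both forestomach libraries. The summed level of the list was 4030 and 2064 FPKM in the colon and 4774 and 6032 FPKM in the intestine.

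Of 28 lipid absorption genes, 19 were called higher and 0 lower, with a median of 2.86 (23 and 22 higher when either forestomach library was left out, 8 stable). Apoc3, an apolipoprotein, was at 426 and 126 FPKM in the colon and 0.313 and 0.0884 FPKM in the forestomach (difference 7.61 ± 0.58, adjusted p = 0.00112). Mttp, which loads lipid onto apolipoprotein B, was at 402 and 154 and 0.433 and 0.89 FPKM (difference 7.25 ± 0.44, adjusted p = 0.000524). Of 18 genes of fetal enterocyte endocytosis, 11 were called higher and 1 lower, with a median of 1.90 (14 and 1 without forestomach replicate 1, 11 and 2 without replicate 2). Folr1, a folate receptor, was at 143 and 103 FPKM in the colon and 0.825 and 0.00781 FPKM in the forestomach (difference 6.49 ± 0.32). Amn, which with cubilin takes up vitamin B12, was at 118 and 69.9 and 0.12 and 0.16 FPKM (difference 6.33 ± 0.26). Both were stable. Fcgrt, the neonatal Fc receptor, was at 686 and 142 and 16.1 and 0.371 FPKM, but its call (adjusted p = 0.0298) ended when any 1 of the 6 libraries outside the forestomach was left out, with adjusted p up to 0.153. The member lower in the colon was Clu, a chaperone, at 9.81 and 9.62 against 713 and 93.6 FPKM (difference -4.60 ± 1.02, adjusted p = 0.0352), also not stable (adjusted p up to 0.155).

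Of 37 tested colonocyte genes, 19 were called higher and 1 lower, with a median of 2.52, and 12 of the higher calls were stable (27 and 4 without forestomach replicate 1, 22 and 3 without replicate 2). The guanylin pathway, which sets fluid secretion, was among them: the ligand Guca2a was at 222 and 223 FPKM in the colon and 0.193 and 0.272 FPKM in the forestomach (difference 7.50 ± 0.35, adjusted p = 0.000212). Its receptor Gucy2c was at 137 and 108 and 0.345 and 0.199 FPKM (difference 6.59 ± 0.22, adjusted p = 0.000102), and the related ligand Guca2b differed by 5.76 ± 0.47 (adjusted p = 0.00142). Slc51a, a chain of the bile acid exporter, differed by 6.56 ± 0.32 (adjusted p = 0.00023). All 4 were stable and did not overlap between the groups. The summed level of the list was 2912 and 1913 FPKM in the colon and 2877 and 3032 FPKM in the intestine. By this sum the list did not set the colon apart from the intestine. Scnn1a, a chain of the epithelial sodium channel, was the member lower in the colon, at 10.1 and 7.32 against 21.1 and 47.9 FPKM (difference -1.77 ± 0.44, adjusted p = 0.048), and was not stable (adjusted p up to 0.219).

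Of 36 tested goblet cell and mucus genes, 16 were called higher and 1 lower, with a median of 1.27 (27 and 1 without forestomach replicate 1, 15 and 8 without replicate 2), and 11 of the higher calls were stable. Reg4, a secreted lectin, was at 141 and 129 FPKM in the colon and 0.0345 and 0 FPKM in the forestomach (difference 7.06 ± 0.19, adjusted p = 0.000102). Retnlb, a goblet cell resistin-like protein, was at 316 and 203 and 0.0381 and 0.0774 FPKM. In the colon Clca1 was at 339 and 432 FPKM, and Spink4 at 446 and 643 FPKM. Their forestomach values were 8.08 and 0.0997 FPKM (Clca1) and 43 and 0.338 FPKM (Spink4), highest in replicate 1, and their calls were not stable (adjusted p up to 0.0567 and 0.191). Rab27a, a GTPase of secretory vesicles, was called lower in the colon (difference -1.65 ± 0.26, adjusted p = 0.0134), and that call ended without either colon library (adjusted p up to 0.0882).

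Of 22 tested enteroendocrine genes, 10 were called higher and 0 lower, with a median of 1.16 (19 and 0 without forestomach replicate 1, 10 and 5 without replicate 2), and 7 were stable. Pyy, peptide YY, was at 98.6 and 103 FPKM in the colon, 0.615 and 0.114 in the forestomach and 9.78 and 5.98 in the intestine. Insl5, a peptide of colonic L cells, was at 61 and 90.4, 0.0365 and 0.0743 and 0.262 and 1.8 FPKM. Against the forestomach they differed by 6.25 ± 0.31 and 6.16 ± 0.47 (adjusted p = 0.000234 and 0.00112), and against the intestine by 3.55 and 5.32 (adjusted p = 0.0213 and 0.0213). Sct, secretin, and Gip, the incretin of the upper intestine, were measured in all tissues. Sct was at 89.6 and 74 FPKM in the colon, 0.33 and 0.0336 FPKM in the forestomach libraries and 104 and 101 FPKM in the intestine. Gip was at 25.8 and 9.69 FPKM in the colon, listed at 0 in the forestomach libraries, and at 45.4 and 63 FPKM in the intestine.

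Not all enzymes of detoxification were higher in the colon. Of 31 tested, 6 were called higher and 4 lower, with a median of 0.73 (14 and 5 without forestomach replicate 1, 6 and 11 without replicate 2). Gsta4, a glutathione transferase for lipid aldehydes, was at 59.7 and 94.4 FPKM in the colon and 1419 and 1515 FPKM in the forestomach (difference -4.27 ± 0.37, adjusted p = 0.00173), nearly equal in the 2 forestomach libraries. Ugt1a6a, a glucuronosyltransferase, was at 0.239 and 0.153 and 3.95 and 5.49 FPKM (difference -2.25 ± 0.23, adjusted p = 0.00315). The Ugt1a genes share exons and the Gsta genes are near copies, so their reads may be split between members. Gsta1 and Sult2b1, a cholesterol sulfotransferase of the skin barrier, were called lower (difference -5.96 ± 1.02 and -3.76 ± 0.69, adjusted p = 0.0167 and 0.0209) but were not stable (adjusted p up to 0.103 and 0.112). Cyp2d26 and Ces2e, a cytochrome and a carboxylesterase, were higher in the colon by 4.47 ± 0.51 and 3.96 ± 0.49 (adjusted p = 0.00435 and 0.0062), both stable. Ugt2b5 was at 47 and 29.6 FPKM in the colon and at 0 in the forestomach.

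**Figure D4:**
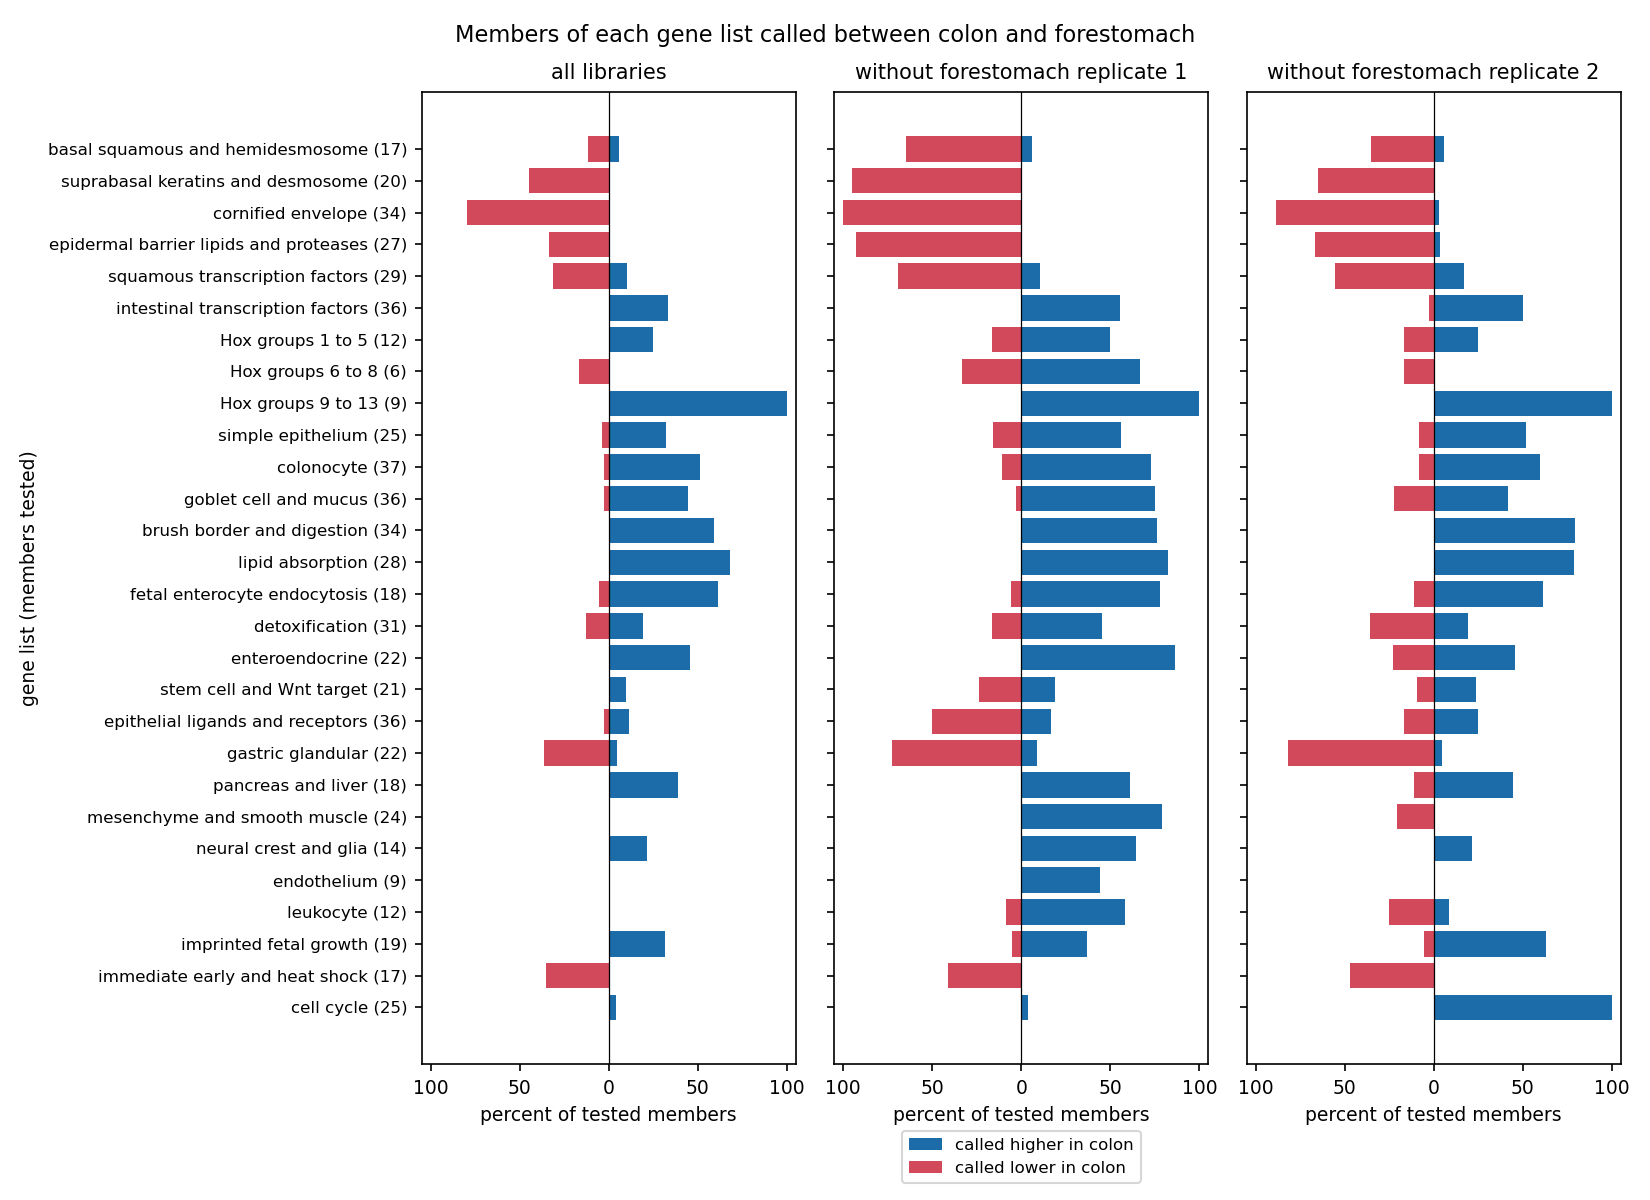
Percent of the tested members of each list called higher (blue, right) or lower (red, left) in the colon, with all libraries and without either forestomach library; the number tested is in parentheses. The squamous lists extend to the left and the absorptive lists and Hox groups 9 to 13 to the right in all 3 panels, while mesenchyme and smooth muscle, leukocyte and cell cycle change with the forestomach library left out.

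Several lists had no call in 1 direction in the limma fit, and at an unadjusted p under 0.05 they had few. Among genes higher in the colon, that number was 1 for suprabasal keratins and desmosome, 0 for the cornified envelope, 1 for barrier lipids and proteases and 0 for immediate early and heat shock genes. Among genes lower in the colon it was 2 for intestinal transcription factors, 3 for stem cell and Wnt target genes, and 0 for each of brush border and digestion, lipid absorption, enteroendocrine, pancreas and liver, neural crest and glia, and imprinted genes. The mesenchyme and smooth muscle list had 2 higher and 0 lower at that level.

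Among signalling genes, of 36 tested ligands and receptors 4 were called higher and 1 lower, with a median of -0.44 (6 and 18 without forestomach replicate 1, 9 and 6 without replicate 2). With all libraries both shares were near those over all genes tested, 9.57% called higher and 2.53% lower. Fgfr4, a receptor of the Fgf15 and Fgf19 hormones, was at 11 and 13.3 FPKM in the colon and 0.567 and 0.218 FPKM in the forestomach (difference 3.25 ± 0.21, adjusted p = 0.000691) and was the stable call. Ihh, a hedgehog ligand, was at 40.7 and 45.1 and 13.1 and 5.35 FPKM. The Notch ligand Dll1 was at 9.16 and 6.83 FPKM in the colon against 1.43 and 2.43 FPKM. The Notch ligand Dll4 was at 3.81 and 5.73 against 1.01 and 0.219 FPKM. These calls were not stable (adjusted p up to 0.0895, 0.0841 and 0.131). Wnt10a was called lower in the colon (difference -2.38 ± 0.59, adjusted p = 0.048, up to 0.185 without 1 library). Wnt4 was at 1.51 and 3.6 FPKM in the colon against 15.6 and 268 FPKM, and Wnt7b at 0.119 and 0.435 against 1.55 and 34.2 FPKM. Neither passed the test with all libraries (adjusted p = 0.0637 and 0.131). Of the 21 stem cell and Wnt target genes 2 were called higher and 0 lower (median 0.22), and the share called higher was near that over all genes. The receptor Ephb2 was at 5.33 and 6.8 against 0.591 and 1.4 FPKM and the stem cell receptor Lgr5 at 2.74 and 2.18 against 0.339 and 0.304. Each call ended without 1 colon library (Ephb2 without replicate 2, adjusted p = 0.0586; Lgr5 without replicate 1, adjusted p = 0.0682). Without forestomach replicate 1 that list gave 4 higher and 5 lower, and without replicate 2 5 higher and 2 lower.

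Of 17 immediate early and heat shock genes, which move with handling of tissue as well as with cell state, 6 were called lower in the colon and 0 higher (7 and 8 lower without forestomach replicates 1 and 2), with a median of -0.74. Hspa1a, an inducible Hsp70 gene, was at 0.764 and 1.96 FPKM in the colon against 12.5 and 14 FPKM. Hspa1b, its near copy, was at 1.74 and 3.49 against 23.5 and 27.2 FPKM. These near copies may share reads. Their differences were -2.63 ± 0.29 and -2.90 ± 0.28 (adjusted p = 0.00376 and 0.00249), stable, as was that of Ier3 (-2.27 ± 0.26, adjusted p = 0.00425). Hspb1, a small heat shock protein that is also abundant in stratified epithelium, was at 7.88 and 14.8 and 195 and 1080.2 FPKM, and its call (adjusted p = 0.0132) ended without either colon library (adjusted p up to 0.0896).

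Markers of other tissues moved with single libraries, and their part in the results above was not tested. Of the gastric gland list, 22 of 31 genes were tested, 8 were called lower in the colon and 1, the somatostatin receptor Sstr1, higher, with a median of -5.35 (16 and 2 without forestomach replicate 1, 18 and 1 without replicate 2). The summed level of this list was 139 and 40.5 FPKM in the colon and 188369 and 4345 FPKM in the forestomach. Mal, a raft protein of stomach, was at 0.816 and 2.59 FPKM in the colon and 189 and 269.8 FPKM in the forestomach and was stable (difference -6.47 ± 0.39, adjusted p = 0.000524). The pancreas and liver list had 7 of 18 called higher and 0 lower (median 2.65), with 2075 and 784 FPKM in the colon and 71253 and 19.6 in the forestomach. Its members differed in direction between forestomach libraries: Clps, procolipase, was at 71034 and 6.55 FPKM there and 292 and 79.6 in the colon. Among the 4 colon and forestomach libraries, Ctrb1 and Cpa1 were highest in colon replicate 1 (1041 and 354 FPKM for Ctrb1, 120.4 and 28.2 FPKM for Cpa1). Both were higher in hindstomach replicate 1 and intestine replicate 1 than in either colon library. Afp, alpha-fetoprotein, was at 100.2 and 126 FPKM in the colon and 0.398 and 0.0639 in the forestomach.

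Of 24 mesenchyme and smooth muscle genes, 0 were called in either direction with all libraries, 19 were called higher without forestomach replicate 1, and 5 were called lower without forestomach replicate 2. Their summed level was 1049 and 2386 FPKM in the colon and 5290.1 and 130.1 FPKM in the forestomach. By this sum forestomach replicate 1 held the most and forestomach replicate 2 the least of the 4 libraries. By the list's median log2(FPKM + 1), colon replicate 2 was the highest at 5.00, against 4.80 in forestomach replicate 1, 3.65 in colon replicate 1 and 0.77 in forestomach replicate 2. Acta2, smooth muscle actin, was at 209.8 and 443 FPKM in the colon and 1327 and 9.86 FPKM in the forestomach. The neural crest and glia list had 3 of 14 called higher, 9 without forestomach replicate 1 and 3 without replicate 2, with 58 and 182 FPKM in the colon and 35.1 and 3.54 in the forestomach. In bulk samples fewer cells of a type and less RNA per cell cannot be told apart.

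Of 25 cell cycle genes 1, Ccnb2, was called higher with all libraries. Its call ended when any 1 of the 6 libraries outside the forestomach was left out (adjusted p up to 0.203). Without forestomach replicate 1 there was also 1 call, but all 25 were called higher without forestomach replicate 2. Top2a was at 31.3 and 38.7 FPKM in the colon and 5.53 and 27 in the forestomach, where replicate 1 was the low library. Of 19 imprinted fetal growth genes, 6 were called higher and 0 lower (7 and 1 without forestomach replicate 1, 12 and 1 without replicate 2), with a median of 1.90. Mest was at 31.9 and 101 FPKM in the colon against 0.684 and 0.632 FPKM, and Nnat at 19.2 and 68.7 against 2.01 and 0.412 FPKM. Their calls (adjusted p = 0.016 and 0.0163) ended without colon replicate 2 (adjusted p = 0.0855 and 0.0649). H19 and Igf2 were low in forestomach replicate 1 alone: H19 was at 6496 and 4129 FPKM in the colon against 10.1 and 4137 FPKM, and Igf2 at 664 and 511 against 1.15 and 348 FPKM.

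**Figure D5:**
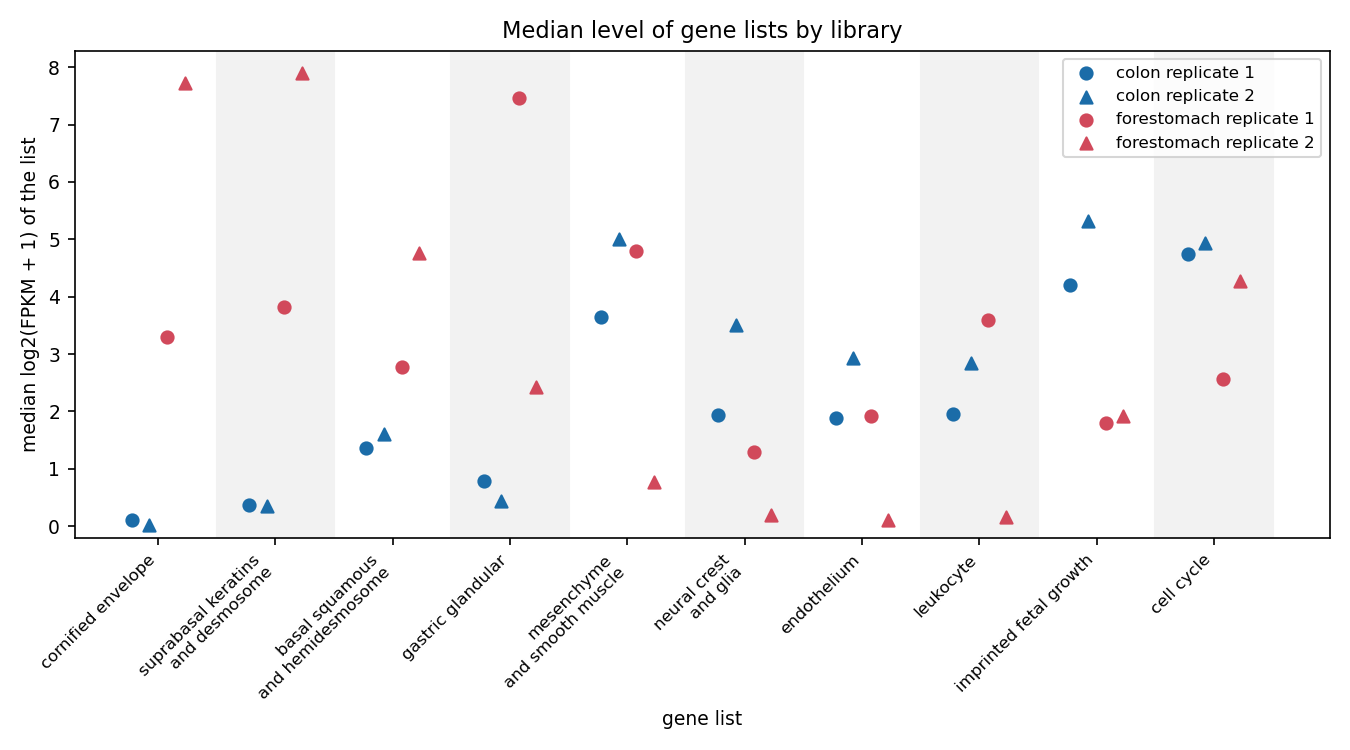
Median log2(FPKM + 1) of each of 10 lists in each library, blue for the colon and red for the forestomach, circles for replicate 1 and triangles for replicate 2. The squamous lists are above the colon in both forestomach libraries and highest in replicate 2, the gastric gland list is highest in replicate 1, and the cell cycle list is lowest in replicate 1.

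The 2 forestomach libraries gave opposite calls for some genes. Against forestomach replicate 2 alone and forestomach replicate 1 alone, 1032 genes were called higher in both comparisons and 379 lower in both, 121 were higher against replicate 2 and lower against replicate 1, and 46 the reverse. By fold alone, both colon libraries were at least 2-fold above forestomach replicate 2 and at least 2-fold below forestomach replicate 1 for 125 genes (1%), and the reverse held for 30 genes (0.241%). Car2, a carbonic anhydrase, was of the first kind at 586 and 10.6 FPKM in the forestomach against 102 and 92.7 FPKM in the colon, and Krt7, a keratin of ducts and simple epithelia, of the second at 6.98 and 129.9 against 35.5 and 44.8 FPKM.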

How the data were processed

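The authors deposited 1 table of FPKM values per gene symbol for poly(A) RNA-seq libraries; 4 columns that match no listed sample were not used. The submitters' processing notes name the aligner STAR, version 2.4.2a, and the genome mm10 (GRCm38). Not given in the sources used here: the program behind FPKM, its gene annotation and its use of strand. Genes that overlap, lie antisense or are near copies may therefore share reads. Very abundant genes can lower the FPKM of all others. In forestomach replicate 1 the 10 genes of highest FPKM made up 52.5% of the sum, and their effect on other genes was not tested. Read counts are not in the values, and no counting interval was derived.

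Values were analysed as log2(FPKM + 1), which understates the change of low genes, for genes that reached 1 FPKM in 2 or more of the 4 colon and forestomach libraries. limma 3.58.1 in R 4.3.3 fitted 4 tissue means over 8 libraries (4 residual degrees of freedom, eBayes with a mean-variance trend). A call needs a change of 2-fold or more and a p under 0.05 after Benjamini-Hochberg adjustment. The fit was tested on simulated data in which a gene had the same spread in all tissues. That test says nothing of the wider spread between the forestomach libraries. When a library was left out, the filter still read all 4 libraries; this was chosen after seeing that a filter on the remaining libraries dropped genes high only in the forestomach. Such fits assume that a lone library varies like the other tissues.

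Named genes were the 12 called genes with the largest difference in each direction (at least 10 FPKM in the higher tissue, no overlap, no predicted, RIKEN, ribosomal pseudogene or mitochondrial models), up to 4 members of each of the 29 gene lists with the largest difference, called members that go against their list, called transcription factors, and fixed cell type markers, repeated without either forestomach library. Not all genes that the rule allows are described, and some are not reported here. The members and lists were chosen with earlier results of these data known, and the motif search, the colon against intestine values and the gene coordinates were added after seeing the data. Coordinates and placements are from GENCODE M21 (GRCm38), in which 12379 of the tested symbols matched; promoters are from RefSeq, which had 9634 of them, 7703 with 1 start. The labels do not say that a replicate number links libraries of different tissues. As alternatives the pseudocount, the filter, the scaling, the variance model and the fold rule were changed, the 4 libraries were fitted alone, the replicate number was added as a block, and 1 library at a time was left out.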

Additional observations from a re-analysis of the deposited data

How the results depend on the processing

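The counts of called genes changed by more than 1.5 times under several alternatives, while few directions changed. Genes called higher numbered 581 when scaled by the median of ratios, 637 after quantile normalization, 2452 with equal totals, 120 with only the colon and forestomach libraries fitted, 204 with library weights and 304 with a test against 2-fold. Genes called lower numbered 31 with only those libraries fitted, 109 with library weights and 93 with the test against 2-fold. With each library left out in turn the counts ran from 477 to 2747 higher and from 82 to 949 lower. The median difference of all genes was 0.183 with no filter on low values, 0.0143 when scaled by the median of ratios, 0.0622 after quantile normalization and 0.777 with equal totals, and ran from 0.31 to 0.51 with a library left out. Genes at least 2-fold above both forestomach libraries numbered 586 with median-of-ratios scaling and 1554 with equal totals, and genes at least 2-fold below both numbered 222 with a filter at 5 FPKM. The cause of these changes was not tested. With the replicate number as a block, 851 genes were called higher and 219 lower, and 14 genes named here lost their call, among them Krt13, Krt4, Sprr3, Hnf4a and Spink4 (adjusted p = 0.0570, 0.0757, 0.0742, 0.0541 and 0.0587). Nothing in the labels pairs libraries by number, and the correlation of replicate 1 minus replicate 2 was -0.00810 between colon and forestomach and from -0.588 to 0.256 over the 6 pairs of tissues. Of the 138 genes named, some, such as Pgc and Trp63, were not called with all libraries and had no call to lose. Among the rest, calls were lost by 73 with only the colon and forestomach libraries fitted, 54 with library weights and 44 with the test against 2-fold. The number was 18 with no filter on low values, 13 when scaled by the median of ratios and 10 after quantile normalization. It was 6 or fewer under each other change of setting apart from the replicate block and the fits that left out 1 library. More genes than that lost their call when a colon, hindstomach or intestine library was left out. With the filter at 5 FPKM, 116 of the 138 genes were still tested, and these kept their calls. Of the genes named, 6 reversed: with 1 library left out the difference ran from -8.85 to 4.35 for Clps, -1.68 to 2.36 for Krt7, -2.12 to 4.82 for Acta2, -2.58 to 3.08 for Car2, -0.18 to 1.23 for Krt8 and -3.12 to 2.38 for Tgm3, and with median-of-ratios scaling it was -0.22 for Car2 and -0.12 for Krt7. None of the 6 was called with all libraries. Depth is known only as a ratio between libraries, so what it limits for low genes cannot be given as an interval.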

Other observations

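Blood vessel and blood cell genes were not called with all libraries, and their levels varied between libraries. Of 9 tested endothelial genes, 0 were called with all libraries (2 higher and 0 lower at an unadjusted p under 0.05 in limma), and 4 were called higher without forestomach replicate 1. Their summed level was 27.5 and 75.9 FPKM in colon replicates 1 and 2 and 35.1 and 2.36 FPKM in forestomach replicates 1 and 2. Of 12 tested leukocyte genes, 0 were called with all libraries (1 higher and 1 lower at an unadjusted p under 0.05), 7 were called higher and 1 lower without forestomach replicate 1, and 1 higher and 3 lower without replicate 2. Their summed level was 56.0 and 114 FPKM in the colon and 360 and 18.4 FPKM in the forestomach. The erythroid list had 1 tested gene and 0 calls, with a summed level of 3.90 and 15.1 FPKM in the colon and 0.443 and 0.836 FPKM in the forestomach.

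Of the 6 tested Hox genes of groups 6 to 8, Hoxc8 was the 1 call with all libraries, 4 were called higher and 2 lower in the colon without forestomach replicate 1, and 0 higher and 1 lower without forestomach replicate 2.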
